A study of Danio rerio with 6 samples.

Results

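The genes described here are 10 vessel receptor and junction genes of the zebrafish (Danio rerio): kdrl, kdr, flt1, flt4, tie1, tek, ramp2, cdh5, clec14a and egfl7. They were chosen by name, with earlier results of these data known, as receptors and surface or junction proteins of vessel cells. The count tables held 32520 gene IDs. Each of the 10 genes matched exactly 1 ID, 6 by the zebrafish symbol and 4 by its capital form in the name table (KDR, FLT4, TIE1 and EGFL7). RNA was sequenced from embryonic cells at 20 h post fertilization that carried red fluorescent protein (RFP) from a gene-trap allele of blf. The labels call them hematopoietic progenitors. Each library was made from 30000 cells sorted by flow cytometry after Liberase digestion, and there were 3 control libraries and 3 libraries labelled blf-/-; drl 4KO. The labels disagree on the controls, whose sample genotype is blf-/- while the series design gives blf+/-. Libraries labelled blf-/-; drl 4KO are called mutant libraries below, and those labelled control are called controls. Both groups carried the gene-trap allele, so the RFP that defined the sort was read from the blf locus itself. The sources used here do not give how many embryos were pooled, or whether replicates came from separate clutches or sorts. P-values therefore reflect the spread between these particular libraries, and that spread may be technical.

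Blood and vessel cells of the early embryo arise side by side from lateral plate mesoderm, and some transcription factors act in both. Vessel cells are recognised by receptor tyrosine kinases of the VEGF and Tie families, which receive growth and survival signals, by VE-cadherin, which joins neighbouring vessel cells, and by other surface and secreted proteins. blf and the drl genes encode zinc finger proteins of the blood-forming mesoderm. The comparison sets the level of vessel genes in RFP-positive cells of mutant embryos against that in controls.

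Total counts were between 12751618 and 18101975 per library. The targeted genes were checked first. blf had 30636 to 34737 counts in the control libraries and 687 to 2349 in the mutant libraries (log2 fold change -5.02, adjusted p = 1.97e-06, edgeR). The blf level thus differed between groups whose sample genotype is blf-/- in both. An RNA level does not settle which label of the controls holds, and the cause of the difference was not tested. The 4 measured drl genes had 371 to 7820 counts each in the controls and 0 to 7 in the mutant libraries. The cells labelled progenitors carried a strong red cell signal in both groups, with summed levels of 10 erythroid marker genes of 95064 to 123284 CPM (counts scaled to a common library size with TMM factors, which adjust for composition) in the controls and 11848 to 15912 CPM in the mutant libraries. The summed progenitor markers, led by LMO2 and TAL1, were at 1925 to 2106 and at 345 to 511 CPM.

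The vessel genes were detected at low levels in the controls, and ramp2, cdh5, clec14a and tie1 rose in the mutant cells, by 8.07-fold, 6.07-fold, 3.33-fold and 2.82-fold. The other 6 members, among them all 4 VEGF receptor genes, were not past the threshold of adjusted p = 0.05 (edgeR quasi-likelihood test with Benjamini-Hochberg adjustment over 14517 genes). No member fell with edgeR, and 0 were lower at an unadjusted p under 0.05 or with DESeq2. The 4 of 10 members called higher stand beside 13.0% of all genes tested called higher, and the 0 called lower beside 9.92%. Over the whole fit 1887 genes were higher and 1440 lower, or 2402 and 959 with library totals in place of TMM factors. The members' median log2 fold change was 1.52, against 0.11 for all genes tested. Since the members were chosen with earlier results of these data known, these shares and medians are a description only.

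Baseline detection was nearly complete. Of 60 values, 10 genes in 6 libraries, 58 were at 10 counts or more, taken here as detected. The exceptions were flt4 in control replicate 3, with 5 counts, and kdr in mutant replicate 3, with 8. Over all genes, 15591, 12711 and 12783 were detected in control replicates 1, 2 and 3, and 14071 to 14958 in the mutant libraries. Mean control levels ran from 2.34 CPM for kdr to 35.8 CPM for clec14a, and 6 of the 10 genes had a control mean of at least 5 CPM. CPM are not divided by transcript length, so these levels are not compared between genes. All 10 members passed the low-count filter, and 9 of them reached its level of 0.708 CPM in all 3 controls. flt4 reached it with the help of the mutant libraries.

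**Figure D1:**
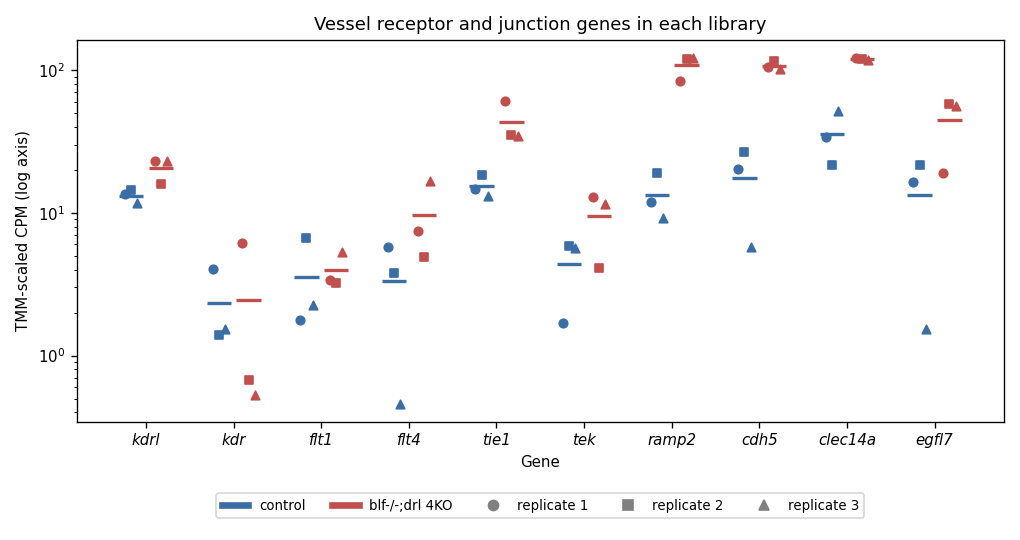
Level of each of the 10 genes in every library, in TMM-scaled CPM on a log axis, with controls in blue, mutant libraries in red, 1 marker shape per replicate number and a bar at each group mean (n = 3). The groups are fully apart for ramp2, cdh5, clec14a and tie1 and narrowly apart for kdrl, and they overlap for the other 5 genes.

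kdrl encodes the main receptor for VEGF-A in zebrafish vessels. Control replicates 1, 2 and 3 had 13.5, 14.3 and 11.6 CPM, and the mutant libraries, in the same order of replicates, had 22.9, 15.8 and 22.9 CPM. All 3 mutant libraries lay above all controls, but the lowest of them, at 15.8 CPM, was close to the highest control, at 14.3 CPM. Its fold was 1.56, with a 95% interval from 0.712 to 3.40 (log2 fold change 0.64 with SE 0.51, adjusted p = 0.409). That interval holds both no change and a rise of the size estimated for clec14a.

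kdr encodes a second VEGF-A receptor of zebrafish. Its level was 4.07, 1.40 and 1.55 CPM in the controls and 6.19, 0.679 and 0.528 CPM in the mutant libraries. Replicate 1 of each group was the high library, the groups overlapped, and mutant replicate 1 supplied 86.0% of the counts of its group. With all libraries the log2 fold change was 0.08 (SE 1.16 and adjusted p = 0.972), and it was -1.91 (adjusted p = 0.277) without that library and -0.16 without control replicate 2 or 3. With an interval for the fold from 0.181 to 6.15, neither a rise nor a fall of kdr was detectable at this spread between libraries.

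flt1 encodes VEGF receptor 1, whose soluble form binds VEGF-A and limits its signal. It was at 1.78, 6.68 and 2.27 CPM in the controls and at 3.37, 3.23 and 5.34 CPM in the mutant libraries, so the highest of all 6 values was control replicate 2. At a log2 fold change of 0.15 (SE 0.97 and adjusted p = 0.927), flt1 was not past the threshold, and the value was -0.24, -0.14 and -0.09 without control replicate 1, control replicate 3 and mutant replicate 3. flt4 encodes the receptor for VEGF-C of veins and lymphatic vessels. It was at 5.77, 3.79 and 0.455 CPM in the controls and at 7.44, 4.87 and 16.8 CPM in the mutant libraries. The groups overlapped, with control replicate 1 above mutant replicate 2, and values within the controls differed 12.7-fold. Its fold of 2.90 had a 95% interval from 0.609 to 13.8 (log2 fold change 1.53 with SE 1.02, adjusted p = 0.316).

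Of the Tie receptors, tie1 rose. Tie1 is a receptor without a well-known ligand of its own that pairs with Tie2 in vessel cells. It was at 14.7, 18.5 and 13.0 CPM in the controls and at 60.3, 35.3 and 34.7 CPM in the mutant libraries, with the lowest of these 1.88-fold above the highest control. Its fold of 2.82 had a 95% interval from 1.49 to 5.35 (adjusted p = 0.0252). The call rested on several libraries: adjusted p was 0.0815, 0.0506 and 0.0868 without control replicates 1, 2 and 3 and 0.120 without mutant replicate 1, whose level was the highest. An antisense RNA gene, lnc.tie1, overlaps tie1 in the RefSeq gene table, and the sources used here do not say whether counting used the strand, so reads of the 2 genes cannot be told apart. In the same table kdr, cdh5, egfl7 and ramp2 also overlap other loci, among them long noncoding RNA genes at the last 3 and the microRNA gene mir126b at egfl7, and the same limit holds for them.

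tek encodes Tie2, the receptor for angiopoietins. It was at 1.70, 5.85 and 5.64 CPM in the controls and at 13.0, 4.13 and 11.5 CPM in the mutant libraries. Replicates 1 and 3 of the mutant group lay above all controls and replicate 2 below 2 of them. Its log2 fold change of 1.12 (SE 0.88 and adjusted p = 0.397) was not past the threshold, and the interval for the fold ran from 0.570 to 8.26.

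ramp2 encodes a small membrane protein that turns the calcitonin receptor-like receptor into a receptor for adrenomedullin. It was at 11.9, 19.0 and 9.19 CPM in the controls and at 83.4, 119 and 122 CPM in the mutant libraries. Every mutant library was at least 4.38 times the highest control, the widest gap among the 10 genes. The 8.07-fold rise corresponds to a log2 fold change of 3.01 (SE 0.36 and adjusted p = 0.000182). It was between 2.76 and 3.37 when any 1 library was left out, and past the threshold in all 6 of those fits.

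cdh5 encodes VE-cadherin, the adhesion protein of junctions between vessel cells. It was at 20.2, 26.7 and 5.73 CPM in the controls and at 104, 115 and 101 CPM in the mutant libraries. The mutant values were close together, with a coefficient of variation of 6.76%, whereas control replicate 3 was low and the controls varied by 61.2%. cdh5 rose by 2.60 on the log2 scale (SE 0.47 and adjusted p = 0.00275), and the change was 2.15 without control replicate 3, still past the threshold.

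clec14a encodes a C-type lectin domain protein of the vessel cell surface, which in mammals binds the matrix protein multimerin 2. It was at 34.1, 21.8 and 51.4 CPM in the controls and at 121, 119 and 117 CPM in the mutant libraries. These were the most even values of any member in the mutant group, with a coefficient of variation of 1.34%, and all lay above the controls. Its fold of 3.33 had a 95% interval from 2.04 to 5.44 (log2 fold change 1.74 with SE 0.32, adjusted p = 0.00306). clec14a overlaps sec23a, a gene of the secretory coat, in the RefSeq gene table. The limit given for tie1 holds here too, so reads from the overlap of these genes cannot be told apart. sec23a was at 63.2 ± 1.44 CPM in controls and 74.7 ± 14.3 CPM in mutants (SD, n = 3 each), with overlapping groups and a log2 fold change of 0.24 (SE 0.26, adjusted p = 0.547, edgeR).

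egfl7 encodes a secreted protein of vessel cells with EGF-like domains. It was at 16.4, 21.7 and 1.55 CPM in the controls and at 19.0, 58.2 and 56.1 CPM in the mutant libraries. The groups overlapped, since mutant replicate 1 lay below control replicate 2, and control replicate 3, with 17 counts, was far below the other controls, with 222 and 263. A log2 fold change of 1.75 had an unadjusted p of 0.0442 and an adjusted p of 0.129 (SE 0.77, edgeR), and adjusted p was between 0.0964 and 0.266 when any 1 library was left out. The estimate for egfl7, 3.35-fold, was like that for clec14a, 3.33-fold, but its 95% interval ran from 1.04 to 10.8.

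**Figure D2:**
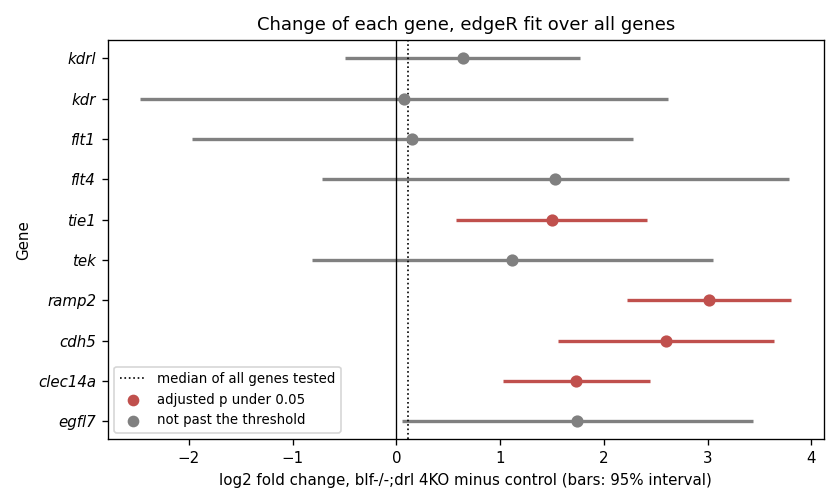
The log2 fold change of each gene, mutant minus control, with its 95% interval from the edgeR fit (n = 3 per group), in red where adjusted p was under 0.05. The dotted line is the median of all genes tested, 0.11; the intervals of the 4 VEGF receptor genes and of tek include 0, and those of ramp2, cdh5, clec14a and tie1 lie above it.

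Without overlap between the groups, 5 members were higher and 0 lower, beside 22.7% and 19.8% of all genes tested. The 5 were the 4 called genes and kdrl. The median of all genes tested was 0.11 with TMM factors and 0.42 with library totals, a shift of 0.31, and relative to that median the change of ramp2 was 2.90 and 2.91, that of cdh5 2.49 in both and that of kdrl 0.53 and 0.52. With TMM factors kdr lay 0.03 below the median and flt1 0.04 above it, both far within their SEs of 1.16 and 0.97. A scaling shifts the members and the median of all genes almost alike, so these relative values are no separate check.

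**Figure D3:**
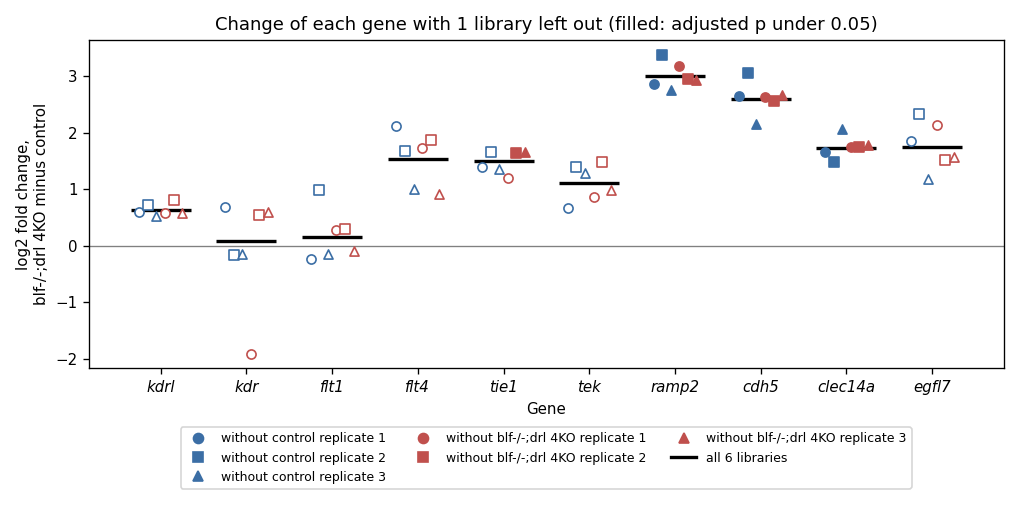
The log2 fold change of each gene with 1 library left out at a time, blue for a control and red for a mutant library, filled where adjusted p was under 0.05, with a black bar for all 6 libraries. ramp2, cdh5 and clec14a stayed past the threshold in 6 of 6 fits and tie1 in 2 of 6, while kdr and flt1 changed sign.

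Counts of the members were also set against those of kdrl. This comparison was chosen after the values were seen, and it needs no scaling, because counts of both genes come from the same library. cdh5 had 1.49, 1.86 and 0.492 counts per count of kdrl in the controls and 4.56, 7.27 and 4.41 in the mutant libraries. For ramp2 the ratios were 0.880, 1.33 and 0.789 in the controls and 3.64, 7.52 and 5.34 in the mutant libraries. The groups did not overlap for cdh5, ramp2, clec14a (1.52 to 4.41 against 5.13 to 7.56) or tie1 (1.09 to 1.29 against 1.52 to 2.64). Ratios to kdrl were not computed for genes other than the members, so no share of all genes stands beside this separation. In CPM, 22.7% of all genes tested were higher without overlap. Between the groups the ratio differed 4.75-fold for cdh5, 5.41-fold for ramp2, 2.30-fold for clec14a and 1.79-fold for tie1, each at p = 0.1 in a two-sided exact permutation test, the smallest p that 3 against 3 libraries allow, and at an adjusted p of 0.225 over the 9 ratios computed (exact permutation test with Benjamini-Hochberg adjustment). With 3 against 3 libraries no ratio could pass the threshold, so this test cannot decide whether a ratio differed. The ratios are a description only. For the other 5 genes the groups overlapped, at p from 0.3 to 0.9 (exact permutation test).

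In reads, the members' sum went from 124, 140 and 102 CPM in the controls to 440, 475 and 489 CPM in the mutant libraries. The means were 122 ± 18.8 and 468 ± 24.8 CPM (SD, n = 3 each), a ratio of 3.83. As a share of the members' counts, cdh5 was at 13.7% ± 7.13 in the controls and 22.8% ± 1.90 in the mutant libraries, ramp2 at 10.7% ± 2.53 and 23.0% ± 3.51, and clec14a at 31.1% ± 17.6 and 25.5% ± 1.71. These shares were not tested. The share of kdrl was 10.8% ± 0.553 in the controls and 4.40% ± 0.967 in the mutant libraries. In bulk RNA, more cells of a type and more RNA per cell cannot be told apart, so the sum does not say which of these differed.

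Markers of other cell types also differed between the groups. Their counts called stand beside 13.0% of all genes tested called higher and 9.92% called lower. Summed over each list and given as the lowest and highest library, myeloid markers were at 1045 to 1194 CPM in the controls and 5014 to 6555 CPM in the mutant libraries, with 12 of 14 tested higher. Of the 16 myeloid IDs, 8 share the symbol MFAP4. One of these (ENSDARG00000090783) had the highest level of the list, at 355 ± 90.7 and 2028 ± 315 CPM (SD, n = 3 each). Epidermis markers were at 72.2 to 103 and 1099 to 1675 CPM, with 7 of 7 higher, although 3 of the 7 did not reach the filter level of 0.708 CPM in all 3 controls and 2 of these, krt5 and cldni, reached it in none. Muscle markers were at 356 to 1344 and 1851 to 4426 CPM, with 4 of 9 higher. Kidney markers were at 58.2 to 65.9 and 270 to 471 CPM with 2 of 3 higher, heart markers at 20.4 to 22.2 and 68.4 to 119 CPM with 0 of 3 higher, and neural markers at 1.73 to 10.1 and 18.8 to 47.0 CPM with 1 of 3 higher. The heart sum followed HAND2, at 4.16 ± 6.80 and 87.3 ± 29.4 CPM, whereas TNNT2 (ENSDARG00000020610) was at 16.6 ± 7.61 and 8.46 ± 1.88 CPM (SD, n = 3 each). The kidney sum followed CDH17, at 53.9 ± 5.59 and 256 ± 161 CPM. PAX2 (ENSDARG00000028148) was at 5.18 ± 4.48 and 80.7 ± 49.6 CPM. PAX8, lhx1a and the other PAX2 ID had lower means in the mutant libraries. The neural sum followed SOX3, at 2.95 ± 1.93 and 18.7 ± 4.46 CPM, and ELAVL3, high only in mutant replicate 3, at 21.0 CPM. Means of ascl1b and neurog1 were lower and that of SOX2 was higher. The filter level was reached with the help of the mutant libraries by 3 of the 14 myeloid, 4 of the 9 muscle, 1 of the 3 kidney, 2 of the 3 heart and 2 of the 3 neural genes tested. Of red cell markers 9 of 10 were lower, of thrombocyte markers 2 of 3 and of progenitor markers 2 of 5. The 2 progenitor markers called lower were TAL1 and LMO2. Both, and GATA2, also stand in the list of vessel transcription factors below, so these are not separate results. The ratio of group means was 3.83 for the vessel members, 3.82 for muscle, 3.90 for neural and 4.61 for heart markers. It was 5.13 for myeloid, 5.37 for kidney and 15.8 for epidermis markers. The muscle sum followed actc1b, at 708 ± 401 and 2596 ± 1027 CPM (SD, n = 3 each). No list had a marker at 0 in all 3 controls. The part of these cell types in the rise of the vessel genes was not tested.

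**Figure D4:**
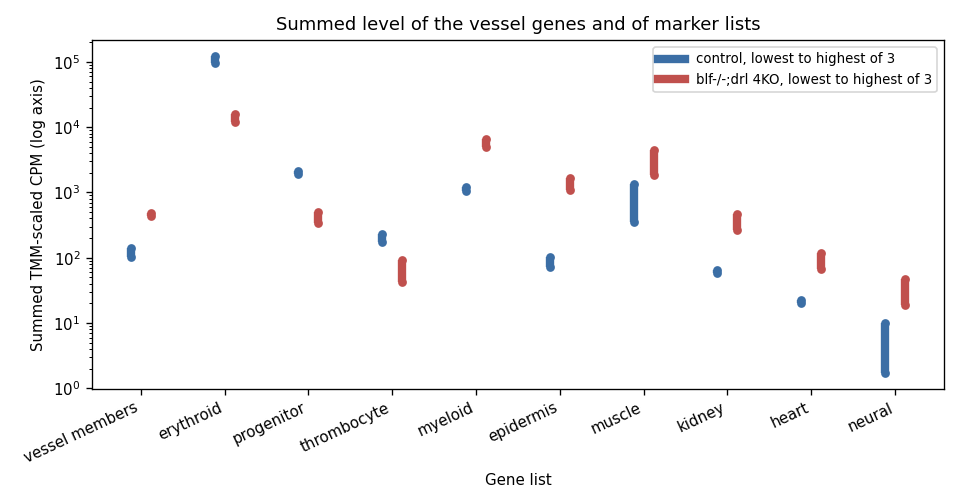
Summed level of the 10 vessel genes and of 9 marker lists in TMM-scaled CPM on a log axis, each bar running from the lowest to the highest of 3 libraries, blue for control and red for mutant. The vessel genes sum to 102 to 140 CPM in the controls and 440 to 489 CPM in the mutant libraries. The myeloid, epidermis, muscle, kidney, heart and neural sums also lie higher in the mutant libraries, and the erythroid, progenitor and thrombocyte sums lie lower.

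Ligands and partners of the members were mostly low in the controls. Of 26 IDs in this list 14 were tested, of which 3 were higher and 0 lower (median log2 fold change 2.33). Over all genes tested, 13.0% were higher and 9.92% lower. Of the 14, 7 reached the filter level in all 3 controls, and the others passed through the mutant libraries at least in part, so the count and median of those tested are a description only. PLCG1, the phospholipase that acts below VEGF receptors, was at 9.47, 11.3 and 27.2 CPM in the controls and at 122, 92.2 and 103 CPM in the mutant libraries, a rise of 6.62-fold (adjusted p = 0.000965, edgeR). One of the 2 IDs listed as VEGFA (ENSDARG00000103542), the ligand of kdrl, kdr and flt1, rose 10.7-fold, from 2.63 ± 1.88 CPM to 28.3 ± 3.55 CPM (SD, n = 3 each, adjusted p = 0.00736, edgeR). With 7 counts in control replicate 3, this ID was below the filter level there. It passed the filter with the help of the mutant libraries, so its rise is a description only. The other VEGFA ID (ENSDARG00000034700), named after its values were seen, was at a log2 fold change of 3.46 and did not pass (adjusted p = 0.109, edgeR). NRP2 (ENSDARG00000096546, 1 of 2 IDs), a coreceptor of VEGF receptors, rose 5.04-fold. Its call was lost without control replicate 1 or 3 or mutant replicate 1 or 3, with adjusted p up to 0.0970. The other NRP2 ID (ENSDARG00000038446) had overlapping groups, at a log2 fold change of 1.31, and did not pass (adjusted p = 0.366, edgeR). mmrn2b, a multimerin 2 gene, and calcrla, which encodes the partner of ramp2, were at log2 fold changes of 2.28 and 1.32 and not past the threshold (adjusted p = 0.166 and 0.191, edgeR).

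Among catenins and other junction genes, which epithelial cells also express, 9 of 20 tested IDs were higher and 0 lower (median 1.36). Of all genes tested 13.0% were higher and 9.92% lower. Of the 20 IDs, 16 reached the filter level in all 3 controls. CTNND1, which encodes p120 catenin, a binder of cadherin tails, rose 10.2-fold, from 60.0 ± 13.5 CPM to 615 ± 121 CPM (adjusted p = 3.41e-06, edgeR). JAM3 (ENSDARG00000061794, 1 of 2 IDs), a junctional adhesion molecule, rose 4.44-fold and ctnna1, for alpha catenin, 3.77-fold. The other JAM3 ID (ENSDARG00000114589) was lower without overlap, at 2.18 ± 1.40 CPM in the controls and 0.654 ± 0.319 CPM in the mutant libraries. Its log2 fold change of -1.73 was not past the threshold (adjusted p = 0.184, edgeR). JUP (ENSDARG00000070787, 1 of 2 IDs), for plakoglobin, was at 112 ± 14.6 and 109 ± 11.9 CPM (log2 fold change -0.04), and ctnnb2, for a beta catenin, at 39.8 ± 2.96 and 71.8 ± 22.1 CPM (log2 fold change 0.85, adjusted p = 0.0726). Epidermis markers summed to 72.2 to 103 CPM in the controls and 1099 to 1675 CPM in the mutant libraries. The part of epidermis cells in the level of these junction genes was not tested.

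Of vessel transcription factors 7 of 18 tested were higher and 2 lower (median 1.33), beside 13.0% and 9.92% of all genes tested. Of the 18, 14 reached the filter level in every control, and 6 of these were called higher. etsrp, the ETS factor that starts the vessel program, and FLI1, another ETS factor of vessel cells, rose 4.96-fold and 2.39-fold, and MEF2C (ENSDARG00000009418, 1 of 2 IDs) rose 3.52-fold. The other MEF2C ID (ENSDARG00000029764) was also called higher, at a log2 fold change of 1.41 (adjusted p = 0.0229, edgeR). TAL1 and LMO2, shared by blood and vessel precursors, fell 4.67-fold and 5.26-fold. GATA2, at 23.2 ± 8.37 and 8.45 ± 2.47 CPM, was not past the threshold (log2 fold change -1.45, adjusted p = 0.0947), nor was klf2b.

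Of artery, vein and scavenger vessel genes, 9 of the 15 tested reached the filter level in all 3 controls. Of the 15, 5 were higher and 0 lower (median 1.46), beside 13.0% and 9.92% of all genes tested. The 5 included DUSP5, a phosphatase gene, 3.13-fold, stab2, a scavenger receptor of venous cells, 2.97-fold, and NOTCH3, 3.60-fold. NOTCH3 was at adjusted p = 0.0524 without control replicate 2 (edgeR). dll4, an arterial Notch ligand, did not pass (adjusted p = 0.112, edgeR). It was at 10.8, 23.0 and 3.09 CPM in the controls and 19.8, 49.1 and 43.2 CPM in the mutant libraries. NOTCH1 (ENSDARG00000103554, 1 of 2 IDs) did not pass either, at a log2 fold change of 2.51 (adjusted p = 0.0572, edgeR). The other NOTCH1 ID (ENSDARG00000052094) was at -0.78 (adjusted p = 0.492, edgeR). Of other vessel markers 2 of 13 tested were higher and 0 lower (median 1.02), near the 13.0% of all genes tested called higher, and 7 of the 13 reached the filter level in all 3 controls, with 1 of these called higher. tmem88a rose 9.01-fold and plvapb, for a protein of vessel fenestrae, 2.99-fold. With 5 counts in control replicate 3, tmem88a was below the filter level there. It passed the filter with the help of the mutant libraries, so its rise is a description only. The call of tmem88a was lost without control replicate 1 or mutant replicate 2 or 3 (adjusted p up to 0.0958), and that of plvapb without control replicate 2 or 3 or mutant replicate 1 (adjusted p up to 0.102, edgeR). CRIP2 (ENSDARG00000070670, 1 of 2 IDs) and fgd5a were at log2 fold changes of -0.05 and -0.76 and did not pass.

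Together the 5 lists held 80 tested genes besides the members, of which 26 were higher and 2 lower, beside 13.0% and 9.92% of all genes tested, with a median of 1.49. Of the 80, 53 reached the filter level in all 3 controls, and 21 of these were higher. The other 27 passed with the help of the mutant libraries, so the counts and medians of these lists are a description and no support. Without control replicate 3 the number higher was 17, and without control replicate 1 it was 18. Leaving out control replicate 1 also lowered the number of all genes called higher, from 1887 to 1411.

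**Figure D5:**
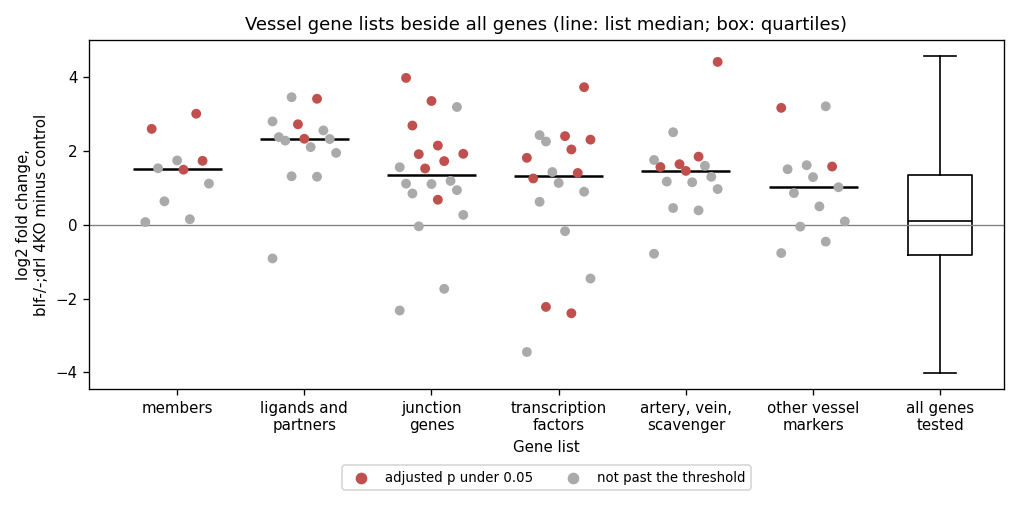
The log2 fold change of each tested gene, mutant minus control, for the members and 5 further vessel lists, in red where adjusted p was under 0.05, with a line at each list's median and a box of quartiles for all 14517 genes, its whiskers reaching the last gene within 1.5 box heights. List medians lie between 1.02 and 2.33, but 27 of the 80 listed genes besides the members passed the filter with the help of the mutant libraries, so the height of a median is a description only. TAL1 and LMO2 are the called genes below 0.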

How the data were processed

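RNA-seq of 6 libraries was analysed from the raw counts per Ensembl gene that the authors deposited, 1 table per library. Per the submitters' processing notes, HISAT2 2.2.1, SAMtools 1.10 and featureCounts 1.6.0 were used with the GRCz11 build. The sources used here do not give the strand setting, the annotation release or the treatment of reads that fit several genes. Groups and replicate numbers come from sample titles.

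All 6 libraries entered 1 quasi-likelihood fit (edgeR 4.0.16, R 4.3.3; TMM, robust, no covariate). filterByExpr kept 14517 genes, over which the Benjamini-Hochberg adjustment was made. SE is the size of the log2 fold change divided by the square root of F. The biological coefficient of variation, 1 common value over all genes, was 66.5%. It describes spread between libraries beyond counting, which may be technical. The fit was tested on simulated data.

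Symbols came from a name table, which names 29201 IDs (89.8%). Overlaps of genes came from RefSeq's table of another build (GRCz12tu), so no coordinates are given. The members and lists were chosen with earlier results of these data known. Genes named by rule are, in each further vessel list, up to 3 called genes of smallest p in each direction and the 2 uncalled genes of highest level. Other IDs of a named symbol, CLDN5 and the genes named from marker lists fall outside this rule. Of the names in the 5 further vessel lists, 27 of 28, 23 of 25, 20 of 20, 14 of 14 and 15 of 20 were matched to an ID. Where a name in these lists was otherwise absent, its capital form without the paralog letter was used. Paralogs could thus share an ID, as fli1 and fli1b share FLI1, and a matched ID may be that of another paralog.

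Within groups, chi-square per degree of freedom between replicates was 38.1 to 78.5, so no library was merely a second sequencing of another. This value cannot tell separate sorts from libraries made of the same cells. The fit was repeated with RLE factors, with library totals, with other filters, without globin genes, with a replicate block, without each library and at a threshold of 0.01, and DESeq2 1.42.0 was run beside it.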

Additional observations from a re-analysis of the deposited data

How the results depend on the processing

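The count of members called higher was 4 under RLE factors, library totals, DESeq2, both other filters and removal of globin genes, and between 3 and 4 when 1 library was left out. It was 3 at a threshold of 0.01, and the count called lower was 0 in every alternative. The number of all genes called lower was 959 with library totals and 868 to 1220 with 1 library left out, and DESeq2 called 3155 genes higher. At the threshold of 0.01, 969 genes were higher and 769 lower, and 12 of the other vessel genes were higher. The cause of the other differences was not tested. Whether replicate numbers pair the libraries is not given. Correlations of same-numbered deviations from the group means were 0.01, -0.04 and -0.01, which cannot exclude a shared clutch or sort. With a replicate block 3 members were higher and 0 lower, and 1651 of all genes were higher and 1277 lower; tie1 was at adjusted p = 0.0565 (edgeR). kdr had a log2 fold change of -0.64 there. The spread between libraries of kdr, flt1, flt4 and tek, with SEs from 0.88 to 1.16, limits what can be said of them.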

Other observations

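Control replicate 3 held the lowest control value for 6 of the 10 members (kdrl, flt4, tie1, cdh5, egfl7 and ramp2), and the highest for clec14a. Of the 80 other vessel genes tested, 36 (45.0%) were lowest there, beside 32.4% of all genes tested. Control replicate 2 held the highest control value for 7 of the 10 members, beside 32.2% of all genes tested and 24 of the 80 other vessel genes.

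The 2 IDs listed as CLDN5, for claudin-5 of vessel junctions, were picked after their values were seen, and they lay on opposite sides of 0. ENSDARG00000014059 rose from 13.6 ± 1.19 CPM to 39.1 ± 2.26 CPM (SD, n = 3 each), a log2 fold change of 1.53 (SE 0.40 and adjusted p = 0.0184, edgeR). ENSDARG00000043716 had 13.1, 10.5 and 10.9 CPM in the controls, whereas mutant replicates 1, 2 and 3 had 0.101, 6.06 and 0.726 CPM. Its groups did not overlap, but its log2 fold change of -2.32 (SE 1.21) was not past the threshold (adjusted p = 0.198, edgeR).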
